A study of Mus musculus with 6 samples.

Results

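The genes described here encode the respiratory chain and the ATP synthase of mitochondria, as far as they lie in the nucleus. They were chosen by symbol: array features that the platform annotation pairs with exactly 1 gene symbol, where that symbol begins with Nduf, Uqcr, Atp5 or any of Cox4 to Cox8, or is Sdha, Sdhb, Sdhc, Sdhd, Cycs or Cyc1. This gave 91 genes of the 19818 genes with such a feature. Each gene was represented by its feature with the highest mean over the 6 arrays. By complex, 34 genes belong to complex I, 4 to complex II, 9 to complex III, 19 to complex IV and 17 to complex V, with 7 assembly factors of complex I (the Ndufaf genes) and Cycs besides. Ndufa4 and Ndufa4l2 were counted in complex IV, where Ndufa4 is now placed. No filter on low values was applied, so all 91 genes entered the tests. Among RefSeq protein-coding symbols 98 fit the rule, and those beyond the 91 were not analysed here.

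The respiratory chain passes electrons taken from food molecules to oxygen and pumps protons across the inner mitochondrial membrane as it does so. Complex I takes electrons from NADH and complex II from succinate, both hand them to ubiquinone, complex III passes them to the small soluble protein cytochrome c, and complex IV gives them to oxygen. Complex V, the ATP synthase, lets the protons flow back and makes ATP. Resting B cells have few mitochondria, and B cell activation and the change towards antibody secretion are known to raise mitochondrial mass and respiration.

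The cells were mature B cells from mouse spleen that were activated, transduced with a retrovirus and sorted for the EGFP that the vector carries. The vector carried MYD88 L265P (group MYD88_L265P), IKK K171E (group IKK_K171E) or no insert (empty vector, group EV). All cells, EV included, stayed in medium with mitogen for 36 hours after transduction and were then kept for 24 hours without it, anti-CD40 being the agent left out. MYD88 is the adaptor by which most Toll-like receptors reach NF-kB, L265P is its recurrent substitution in human B cell lymphomas, and the IKK kinases release NF-kB from its inhibitors. The labels name no change to the cells' own Myd88 and IKK genes. The promoter that drives the inserts, the IKK subunit and the number of mice are not given in the sources used here.

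Each group had 2 Affymetrix mouse ST 1.0 arrays, which the labels call biological replicates. Values are the deposited log2 signals, with array medians between 8.03 and 8.13, and a log2 difference of 1 is a doubling. The number of arrays limits the precision. A gene was called when the p-value of limma, adjusted by Benjamini-Hochberg over all 21542 features with exactly 1 symbol, was below 0.05. Myd88 had log2 signals of 12.25 and 12.31 in MYD88_L265P, 9.43 and 9.14 in IKK_K171E and 9.30 and 9.35 in EV. Ikbkb, which encodes an IKK subunit, had 9.69 and 9.68 in MYD88_L265P, 11.35 and 10.68 in IKK_K171E and 9.98 and 10.22 in EV, and its difference between IKK_K171E and EV was not called (adjusted p = 0.085, limma). The 7 mature B cell markers measured had mean log2 signals between 11.6 and 12.2 on every array.

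In MYD88_L265P cells 40 of the 91 respiratory genes were higher than in EV cells (44.0%), against 9.02% of all genes. None of the 91 was called lower by limma, where 7.44% of all genes were, and 4 had a lower value at an unadjusted p below 0.05. At that unadjusted level 4631 of all 19818 genes were lower. The median log2 fold change of the 91 genes was 0.43, beside -0.11 for all 19818 genes. Both MYD88_L265P arrays lay above both EV arrays for 69 of the 91 genes, as they did for 22.8% of all genes. Of the 40 called genes, 26 differed by at least 1.5-fold. The changes ran up to a log2 fold change of 1.37, for Cycs. Because the RNA came from a sorted population, more transcript per cell and a larger share of cells with that transcript cannot be told apart. Without the dimmest 25% of features, 45 of the respiratory genes were called higher, beside 12.8% of all genes, and 0 lower, beside 10.8%. With MYD88_L265P replicate 1, MYD88_L265P replicate 2 or EV replicate 2 left out, 7, 3 or 13 of the 91 genes were called higher, beside 1.24%, 0.666% and 3.75% of all genes. With the replicate number as a block in the fit, Cox5a, Cox5b, Cox7a2, Uqcrb, Uqcrq, Atp5e, Atp5g3 and Atp5mpl were called higher too and Cox7a2l was called lower, beside 10.6% of all genes called higher and 8.34% called lower.

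**Figure D1:**
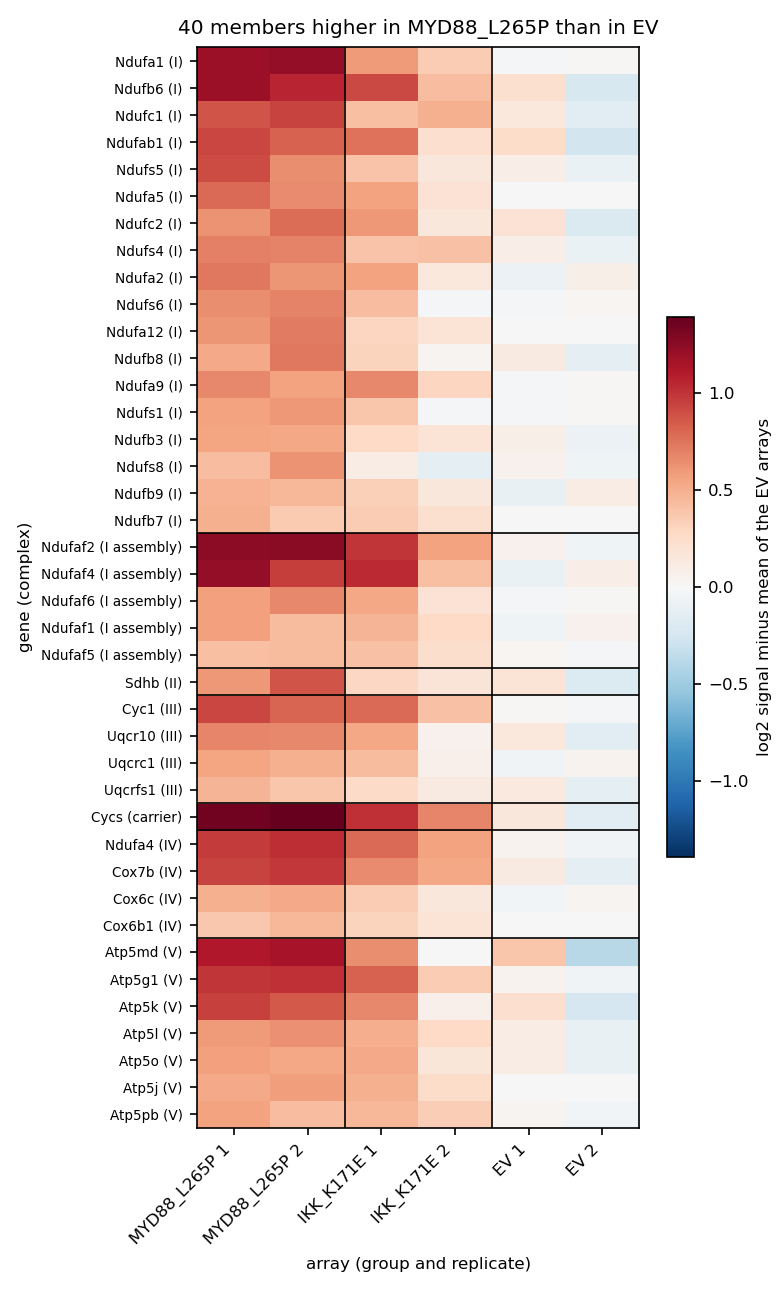
The heat map shows, for each of the 40 called genes (rows, with their complex), the log2 signal on each of the 6 arrays (columns) minus the mean of the EV arrays. Both MYD88_L265P columns are red in every row, IKK_K171E replicate 1 is redder than replicate 2 in most rows, and the largest values are those of Cycs.

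In IKK_K171E cells 2 of the 91 genes, Cycs and Ndufa4, were higher than in EV cells, where 0.974% of all genes were called higher. None was called lower by limma, against 0.434% of all genes, and 0 were lower at an unadjusted p below 0.05, beside 1634 of all 19818 genes. The median log2 fold change of the 91 genes was 0.18, beside -0.04 for all genes. Both IKK_K171E arrays lay above both EV arrays for 37 of the 91 genes, as they did for 17.5% of all genes. The calls depended on single arrays. Without IKK_K171E replicate 1 the median of the 91 genes was 0.059, beside -0.024 for all genes. Without IKK_K171E replicate 2 it was 0.287, beside -0.052. The number called was 6 with the replicate block, where Cox7b, Cyc1, Ndufaf2 and Ndufb6 were also called and 2.11% of all genes were called higher. The comparisons of MYD88_L265P and of IKK_K171E with EV share the EV arrays, so their values are not independent. Between MYD88_L265P and IKK_K171E, 1 gene was higher in MYD88_L265P, Ndufa1, against 0.903% of all genes. None was lower in MYD88_L265P, against 0.903% of all genes, and 0 were lower at an unadjusted p below 0.05, beside 2279 of all 19818 genes. With the replicate block 2 were higher, Ndufa1 and Ndufs5, beside 1.18% of all genes. The median log2 fold change over IKK_K171E was 0.20, beside -0.06 for all genes, and it was 0.13 after quantile normalization and 0.082 without IKK_K171E replicate 2.

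The replicates of IKK_K171E stood apart in these genes. Set against the mean of the EV arrays, the median of the 91 genes was 0.42 and 0.40 on the MYD88_L265P arrays, 0.29 and 0.06 on the IKK_K171E arrays and 0.03 and -0.03 on the EV arrays. IKK_K171E replicate 1 was thus nearer to MYD88_L265P, and replicate 2 nearer to EV. In IKK_K171E, 77 of the 91 genes were higher in replicate 1 than in replicate 2, where 9422 of 19818 genes overall were. The same count was 47 of 91 in MYD88_L265P and 54 of 91 in EV. The mean of 5 plasma cell markers also differed between these arrays, at 10.3 and 9.95 in MYD88_L265P, 9.21 and 8.41 in IKK_K171E and 8.66 and 8.93 in EV. Of those 5, Prdm1 (log2 fold change 2.47), Jchain (2.22) and Xbp1 (1.26) were higher in MYD88_L265P than in EV, where 9.02% of all genes were, while Sdc1 and Irf4 were not called. In IKK_K171E over EV 0 of the 5 were called and 0 passed an unadjusted p below 0.05. Their median log2 fold change there was 0.03, with 3 positive and 2 negative. The mean of 9 monocyte and macrophage markers was 8.83 and 8.58 in MYD88_L265P, 9.48 and 9.17 in IKK_K171E and 8.69 and 8.91 in EV. In IKK_K171E over EV 8 of these 9 were positive, where 7950 of all 19818 genes were. Of the 9, 1 was called higher and 1 lower, beside 0.974% and 0.434% of all genes. At an unadjusted p below 0.05, 7 were higher and 1 lower there, beside 1743 and 1634 of all 19818 genes. In MYD88_L265P over EV 5 of the 9 were positive, where 6537 of all genes were, and 1 was called lower and 0 higher. Of 7 mature B cell markers, 4 (Cd79b, Cd22, Ebf1 and Cd74) were lower in MYD88_L265P than in EV, where 7.44% of all genes were. All 7 had negative log2 fold changes over EV in both mutants, with 1, Cd22, called in IKK_K171E, beside 0.434% of all genes. Of all 19818 genes, 13281 had negative log2 fold changes over EV in MYD88_L265P and 11868 in IKK_K171E. The mean of 8 T cell markers was 7.61 and 7.46 in MYD88_L265P, 8.11 and 7.95 in IKK_K171E and 7.80 and 7.89 in EV. These means lay around or below the array medians of 8.03 to 8.13. All 8 had negative log2 fold changes over EV in MYD88_L265P, as 13281 of all 19818 genes did, with 3 called (Cd3e, Cd3g and Cd4), beside 7.44% of all genes. In IKK_K171E all 8 had positive ones, as 7950 of all genes did. Of the 8, 0 were called there by limma and 1 was higher at an unadjusted p below 0.05. Of 6 NK cell markers and of 6 neutrophil markers 1 each was lower in MYD88_L265P than in EV, beside 7.44% of all genes. Of 3 erythroid markers none was called there, with 1 lower at an unadjusted p below 0.05. In IKK_K171E over EV 0 markers of these 3 cell types were called. Of the NK cell markers 5 of 6 were positive there, with 3 higher at an unadjusted p below 0.05. Of the neutrophil markers 4 of 6 were positive, with 1 higher at that level, and of the erythroid markers 1 of 3, with 0 higher. Ikbkb also differed between the IKK_K171E arrays, at 11.35 in replicate 1 and 10.68 in replicate 2. The part of these markers and of Ikbkb in the respiratory genes was not tested.

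**Figure D2:**
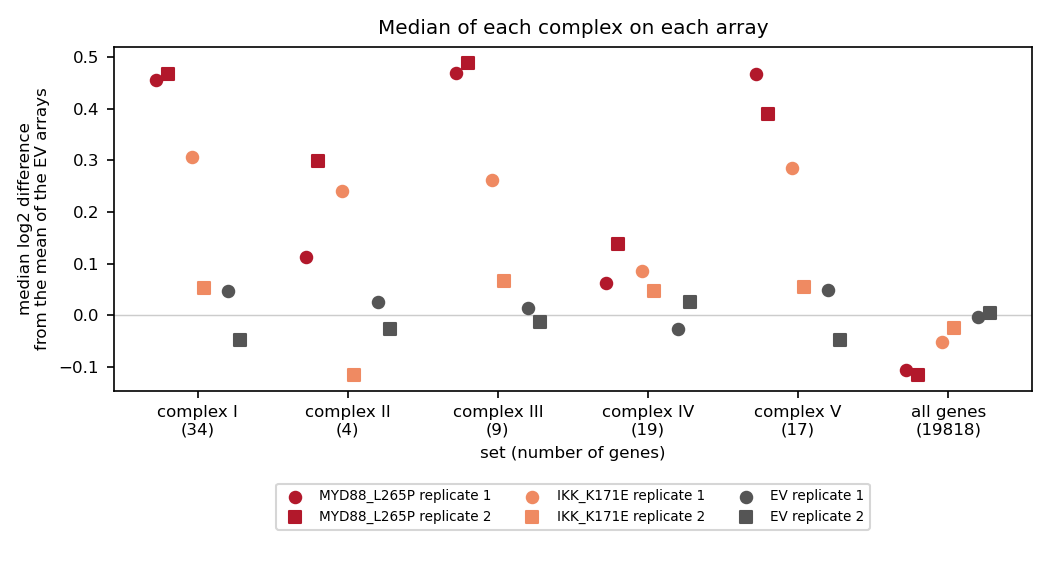
Each point is the median over the genes of a complex (or over all genes) of the log2 signal on 1 array minus the mean of the EV arrays. In complexes I, III and V both MYD88_L265P arrays lie highest and IKK_K171E replicate 1 next, with replicate 2 near the EV arrays, whereas for all genes the MYD88_L265P arrays lie lowest, at -0.11 and -0.12.

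Since many of these genes moved together, the sequence around their starts was examined. RefSeq windows from 250 bases before to 50 bases after the start (GRCm38.p6) were given for 74 of the 91 genes. The windows below belong to Cycs, the gene with the largest change, to Ndufa1, the gene that also differed between MYD88_L265P and IKK_K171E, and to Sdha, which was not called in any comparison. The window of Cycs is chr6:50566520-50566819, that of Ndufa1 is chrX:37191189-37191488 and that of Sdha is chr13:74350191-74350490, all on the minus strand. They read 5′ to 3′ along the gene, and capitals mark matches to GCGCANGCG, the letters that nuclear respiratory factor NRF1 is known to bind, on either strand.
Cycs: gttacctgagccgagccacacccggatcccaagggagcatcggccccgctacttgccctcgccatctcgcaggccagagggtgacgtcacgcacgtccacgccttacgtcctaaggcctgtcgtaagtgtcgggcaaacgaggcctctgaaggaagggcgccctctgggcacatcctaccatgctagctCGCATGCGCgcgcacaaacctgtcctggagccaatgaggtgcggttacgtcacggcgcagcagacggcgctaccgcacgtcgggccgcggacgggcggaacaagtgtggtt
Ndufa1: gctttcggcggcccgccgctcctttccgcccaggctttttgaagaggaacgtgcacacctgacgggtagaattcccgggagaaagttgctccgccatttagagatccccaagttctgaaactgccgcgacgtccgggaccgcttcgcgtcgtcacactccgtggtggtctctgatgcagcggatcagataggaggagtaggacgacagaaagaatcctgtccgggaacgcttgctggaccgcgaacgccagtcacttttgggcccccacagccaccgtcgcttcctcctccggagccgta
Sdha: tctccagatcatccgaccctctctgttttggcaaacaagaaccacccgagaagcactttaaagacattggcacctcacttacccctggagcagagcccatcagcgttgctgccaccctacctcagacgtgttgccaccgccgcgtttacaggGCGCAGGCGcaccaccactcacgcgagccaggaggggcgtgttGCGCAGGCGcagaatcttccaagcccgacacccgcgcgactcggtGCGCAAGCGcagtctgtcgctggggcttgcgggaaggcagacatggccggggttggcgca
Cycs held 1 match, Sdha 3 and Ndufa1 none. Of windows not shown, those of Ndufaf4, called in MYD88_L265P over EV, and of Atp5g2, not called, held 2 overlapping matches each. These single windows were picked and allow no conclusion. The same letters were found, on either strand, in 21 of the 74 windows (28.4%) and in 8.83% of the 17492 windows of protein-coding genes. They were in 10 of 34 windows of genes called higher in MYD88_L265P than in EV (29.4%) and in 11 of 36 windows of genes not called (30.6%), tissue-restricted isoforms left out. AAGATGGC, a YY1-type motif, was in 9 of 74 windows (12.2%) and in 3.22% of all windows, with 6 of 34 among called genes and 3 of 36 among those not called. CCGGAAGT, an ETS-type motif, was in 5 of 74 windows (6.76%) and in 5.29% of all windows, with 0 of 34 among called genes and 5 of 36 among those not called. The E-box CACGTG was in 6 of 74 windows (8.11%) and in 7.90% of all windows. None of the 4 motifs contains another, and 35 of the 74 windows held at least 1 of them. The windows of the respiratory genes were richer in CG pairs than those of all genes, with a median of 20 against 13 and a median GC content of 58.5% against 56.3%. These matches describe the letters alone.

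Complex I, which has the most genes, had 18 of 34 genes higher in MYD88_L265P than in EV and a median log2 fold change of 0.46. The largest change was that of Ndufa1, a small subunit of the membrane arm that human complex I needs to assemble. Its log2 signals were 9.41 and 9.43 in MYD88_L265P, 8.81 and 8.56 in IKK_K171E and 8.19 and 8.23 in EV. The 3 groups did not overlap, and IKK_K171E lay between the other groups. Its log2 fold change over EV was 1.21 ± 0.105 (SE) in MYD88_L265P (2.31-fold, adjusted p = 0.0035, limma) and 0.47 in IKK_K171E (adjusted p = 0.0842). The difference of MYD88_L265P over IKK_K171E was 0.74 ± 0.105 (SE, adjusted p = 0.0238, limma), and it was not called when any MYD88_L265P or IKK_K171E array was left out.

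Ndufb6, another membrane arm subunit, had 10.40 and 10.27 in MYD88_L265P, 10.12 and 9.64 in IKK_K171E and 9.43 and 8.98 in EV. Its log2 fold change of MYD88_L265P over EV was 1.13 ± 0.196 (SE, adjusted p = 0.0144, limma). Ndufc1, also of the membrane arm, had 9.60 and 9.66 in MYD88_L265P, 9.14 and 9.22 in IKK_K171E and 8.87 and 8.57 in EV. Ndufc1 was 1.88-fold higher in MYD88_L265P than in EV (log2 fold change 0.91, adjusted p = 0.00646, limma), and its IKK_K171E arrays lay between the other groups without overlap. Ndufab1, the mitochondrial acyl carrier protein, differed by 0.87 (adjusted p = 0.0344) and Ndufs5 by 0.78 (adjusted p = 0.0135). In the arm that juts into the matrix, the called genes included Ndufs4, an accessory subunit mutated in human Leigh syndrome (0.70, adjusted p = 0.00783), and Ndufa12 (0.67, adjusted p = 0.00788). The iron-sulphur subunits Ndufs1 (0.58, adjusted p = 0.0326) and Ndufs8 (0.53, adjusted p = 0.0281) were also higher. Ndufs8 had 9.43 and 9.62 in MYD88_L265P, 9.09 and 8.85 in IKK_K171E and 9.05 and 8.94 in EV. Its IKK_K171E and EV arrays overlapped, and MYD88_L265P over IKK_K171E was 0.55 (adjusted p = 0.0789, limma). The other called genes were Ndufa5, Ndufc2, Ndufa2, Ndufs6, Ndufb8, Ndufa9, Ndufb3, Ndufb9 and Ndufb7, with log2 fold changes between 0.43 and 0.72.

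The 16 genes of complex I that were not called had log2 fold changes of MYD88_L265P over EV between -0.06, for Ndufa6, and 0.45, for Ndufv2. Among them were further core subunits. The NADH-binding subunit Ndufv1 had 9.51 and 9.37 in MYD88_L265P, 9.42 and 8.98 in IKK_K171E and 8.94 and 9.36 in EV (log2 fold change 0.30 over EV, adjusted p = 0.262, limma). Ndufs3, a core subunit with no redox centre, had 10.63 and 10.59 in MYD88_L265P, 10.71 and 10.56 in IKK_K171E and 10.62 and 10.67 in EV (-0.03, adjusted p = 0.817). Its groups overlapped. Ndufs7, which carries the iron-sulphur cluster next to ubiquinone, differed by 0.32 (adjusted p = 0.0815).

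By the place of a subunit in complex I, a grouping made after the values were seen and therefore not tested, 5 of 10 genes of the NADH-oxidising N module were called, with a median log2 fold change of 0.52. In the ubiquinone-reducing Q module 2 of 4 were called (median 0.42), and of the membrane arm and other subunits 11 of 20 (median 0.45). Called genes were thus found in each of these parts. In complex V the corresponding counts were 0 of 5 for the catalytic F1 head and central stalk (median 0.31, with 2 higher at an unadjusted p below 0.05), 3 of 4 for the peripheral stalk (0.52), 1 of 3 for the c ring (0.40) and 3 of 5 for the small membrane subunits (0.61). At an unadjusted p below 0.05, 3043 of all 19818 genes were higher.

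**Figure D3:**
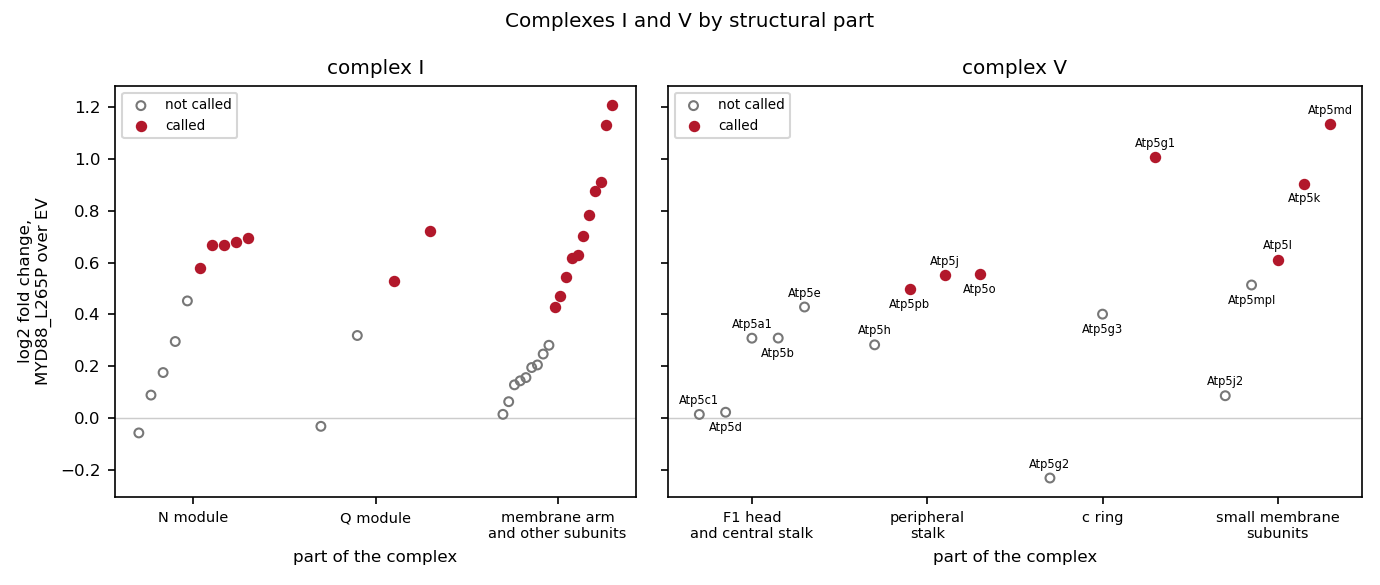
Log2 fold changes of MYD88_L265P over EV for the genes of complexes I and V, sorted within each structural part. Filled points are called genes. In complex I called and uncalled genes lie in every part, and in complex V the 5 genes of the F1 head and central stalk lie between 0.02 and 0.43 with none called.

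The assembly factors of complex I are not part of the finished enzyme. Of the 7 Ndufaf genes 5 were higher in MYD88_L265P than in EV, with a median log2 fold change of 0.51. Ndufaf2, a chaperone of a late step, had 9.54 and 9.55 in MYD88_L265P, 9.28 and 8.85 in IKK_K171E and 8.35 and 8.23 in EV. Its groups did not overlap, and it was 2.39-fold higher in MYD88_L265P than in EV (log2 fold change 1.26 ± 0.143 SE, adjusted p = 0.00523, limma). In IKK_K171E the log2 fold change of Ndufaf2 was 0.78 (adjusted p = 0.0555). Ndufaf4 had 10.33 and 10.06 in MYD88_L265P, 10.13 and 9.52 in IKK_K171E and 9.005 and 9.19 in EV. The log2 fold change of Ndufaf4 was 1.10 ± 0.201 (SE) in MYD88_L265P (adjusted p = 0.0165, limma), and IKK_K171E replicate 1 fell between the MYD88_L265P arrays. Ndufaf6 (0.62, adjusted p = 0.0203), Ndufaf1 (0.51, adjusted p = 0.0236) and Ndufaf5 (0.43, adjusted p = 0.0265) were called too. Ndufaf7 (0.26, adjusted p = 0.134) and Ndufaf3 (0.15, adjusted p = 0.314) were not.

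Complex II, succinate dehydrogenase, is shared with the citrate cycle, and its 4 subunits differed among themselves. Sdhb, the iron-sulphur subunit, had 9.72 and 9.99 in MYD88_L265P, 9.40 and 9.29 in IKK_K171E and 9.31 and 8.92 in EV, so that IKK_K171E overlapped EV and MYD88_L265P stood above both. Its log2 fold change of MYD88_L265P over EV was 0.74 ± 0.151 (SE, adjusted p = 0.0216, limma). Sdha, the flavin-bearing catalytic subunit, had 11.56 and 11.69 in MYD88_L265P, 11.74 and 11.44 in IKK_K171E and 11.59 and 11.71 in EV. The groups of Sdha overlapped, with a log2 fold change of -0.02 ± 0.123 (SE, adjusted p = 0.901, limma) in MYD88_L265P. The membrane anchors Sdhc (0.26, adjusted p = 0.153) and Sdhd (0.15, adjusted p = 0.524) were not called. The median of the 4 genes was 0.21 in MYD88_L265P and 0.06 in IKK_K171E, both over EV. In MYD88_L265P it was 0.112 without replicate 2 and 0.060 after quantile normalization, and in IKK_K171E it was -0.115 without replicate 1.

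Complex III had 4 of 9 genes higher in MYD88_L265P than in EV, with a median log2 fold change of 0.47. Cyc1, the cytochrome c1 that passes electrons on to cytochrome c, had 10.16 and 10.05 in MYD88_L265P, 10.02 and 9.65 in IKK_K171E and 9.26 and 9.22 in EV. No groups of Cyc1 overlapped, and it was 1.83-fold higher in MYD88_L265P than in EV (log2 fold change 0.87 ± 0.132 SE, adjusted p = 0.0099, limma). In IKK_K171E the value was 0.60 (adjusted p = 0.0809). Uqcr10 (0.68, adjusted p = 0.0374), the core protein Uqcrc1 (0.52, adjusted p = 0.0383) and the Rieske iron-sulphur protein Uqcrfs1 (0.43, adjusted p = 0.0473) were called as well. Uqcrq lay just outside the threshold (0.47, adjusted p = 0.0504), and Uqcrb, with 0.62, had an adjusted p of 0.0722. Uqcrc2, the partner of Uqcrc1 in the core, differed by 0.17 (adjusted p = 0.208). Uqcrh had 12.42 and 12.37 in MYD88_L265P, 12.50 and 12.53 in IKK_K171E and 12.43 and 12.43 in EV (-0.03, adjusted p = 0.766). The lowest value was that of the small subunit Uqcr11 (-0.18, adjusted p = 0.175), whose other feature read 0.14.

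Cycs encodes cytochrome c, the carrier between complexes III and IV, which also triggers caspase activation when it leaves the mitochondrion. It was the member that changed most in both mutants. Its log2 signals were 11.90 and 11.95 in MYD88_L265P, 11.58 and 11.24 in IKK_K171E and 10.72 and 10.40 in EV. The 3 groups did not overlap, and IKK_K171E again lay between the others. Cycs was 2.59-fold higher in MYD88_L265P than in EV (log2 fold change 1.37 ± 0.148 SE, adjusted p = 0.00468, limma). In IKK_K171E it was 1.81-fold higher than in EV (0.85 ± 0.148 SE, adjusted p = 0.0479, limma), and MYD88_L265P over IKK_K171E was 0.52 (adjusted p = 0.142). Cycs has 3 features on the array, and the others read log2 fold changes of 1.44 and 0.50 in MYD88_L265P, the last not called. Processed copies of Cycs are common in the mouse genome, and which copy a feature reads was not resolved here.

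Complex IV, cytochrome c oxidase, had 4 of 19 genes called in MYD88_L265P over EV and a median log2 fold change of 0.06, which was -0.025 without EV replicate 1. The 19 include 8 isoforms known mainly from muscle, testis, lung or other particular tissues (Cox4i2, Cox6a2, Cox6b2, Cox7a1, Cox7b2, Cox8b, Cox8c and Ndufa4l2). None of these 8 was called by limma, in either direction, and 3 were lower at an unadjusted p below 0.05, beside 4631 of all 19818 genes. The median of the 8 isoforms was -0.16, beside -0.11 for all genes. Their mean log2 signals in EV lay between 5.95 (Cox7b2) and 8.65 (Cox6a2), where array medians were 8.03 to 8.13. Without these 8 isoforms 4 of 11 genes of complex IV were called and the median was 0.52. Ndufa4, a subunit long assigned to complex I, had 11.58 and 11.63 in MYD88_L265P, 11.39 and 11.16 in IKK_K171E and 10.65 and 10.55 in EV. Its groups did not overlap. Ndufa4 was 2.01-fold higher in MYD88_L265P than in EV (log2 fold change 1.00 ± 0.105 SE, adjusted p = 0.0044, limma) and 1.59-fold higher in IKK_K171E (0.67 ± 0.105 SE, adjusted p = 0.0399). The calls of Ndufa4 and of Cycs in IKK_K171E were lost when IKK_K171E replicate 1, EV replicate 2 or either MYD88_L265P array was left out, with adjusted p between 0.100 and 0.247.

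Cox7b, a small subunit needed for assembly of the human enzyme, had 11.80 and 11.85 in MYD88_L265P, 11.52 and 11.39 in IKK_K171E and 10.99 and 10.73 in EV, with no overlap. Its log2 fold change was 0.96 ± 0.113 (SE) in MYD88_L265P (adjusted p = 0.00556, limma) and 0.60 in IKK_K171E (adjusted p = 0.0575). Cox6c (0.52, adjusted p = 0.0184) and Cox6b1 (0.42, adjusted p = 0.0266) were the other called genes of complex IV. Cox5a had 10.40 and 10.36 in MYD88_L265P, 10.16 and 9.80 in IKK_K171E and 9.92 and 9.19 in EV. Cox5a missed the threshold with a log2 fold change of 0.83 (adjusted p = 0.0506), and its IKK_K171E and EV arrays overlapped. Cox4i1, a large nuclear-encoded subunit, did not separate the groups (0.06, adjusted p = 0.748). Cox7a2l, which is known for joining complexes III and IV into supercomplexes, had the lowest fold change of all 91 genes. It had 10.95 and 11.17 in MYD88_L265P, 11.22 and 11.35 in IKK_K171E and 11.37 and 11.88 in EV. Both MYD88_L265P arrays lay below both EV arrays, as they did for 9643 of all 19818 genes. The log2 fold change of Cox7a2l was -0.57 ± 0.171 (SE) and was not called (adjusted p = 0.0616, limma). Cox7a2l was called lower with the replicate block (adjusted p = 0.0204, limma), after quantile normalization, with array weights, with a variance trend and without EV replicate 1.

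**Figure D4:**
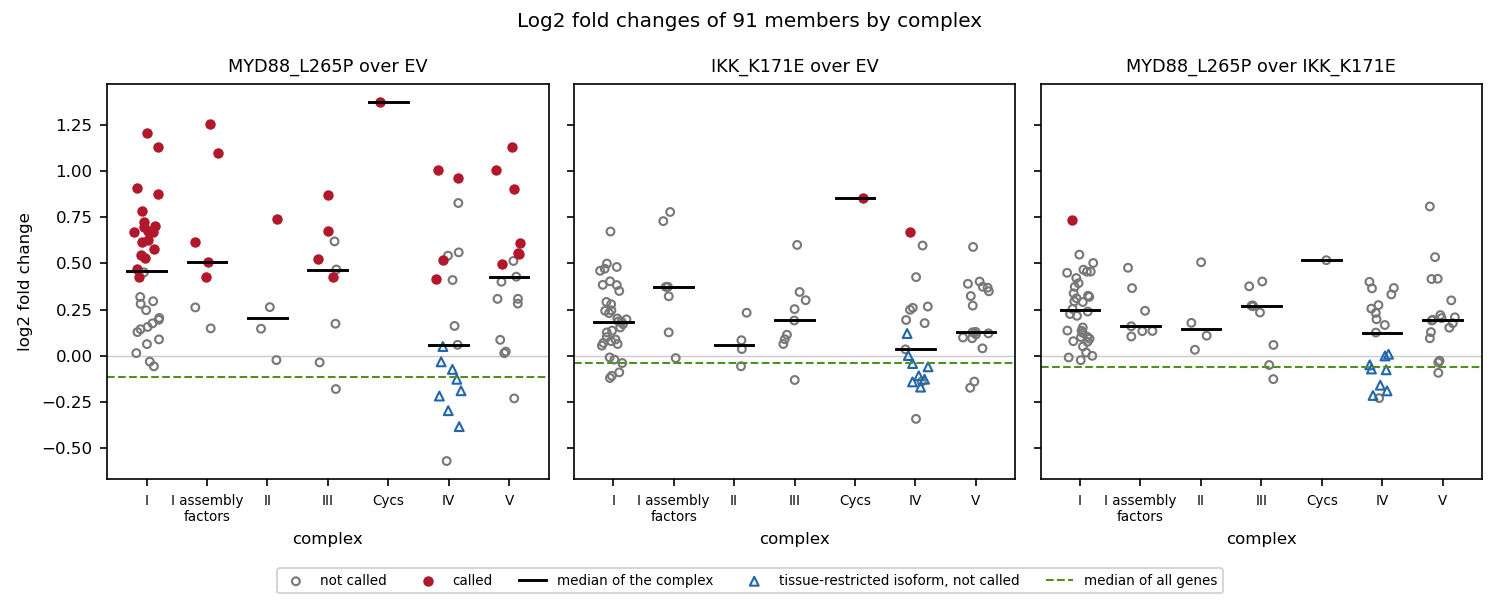
Log2 fold changes of the 91 genes by complex in the comparisons MYD88_L265P over EV, IKK_K171E over EV and MYD88_L265P over IKK_K171E. Filled points are called genes, black bars are medians of a complex, triangles are tissue-restricted isoforms and the dashed line is the median of all genes. In MYD88_L265P over EV the medians of complexes I, III and V lie between 0.43 and 0.47, and that of complex IV lies at 0.06 with the triangles below it.

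In complex V 7 of 17 genes were higher in MYD88_L265P than in EV, with a median log2 fold change of 0.43. The catalytic core was not among them. Atp5b, the subunit that holds the catalytic sites, had 12.43 and 12.51 in MYD88_L265P, 12.42 and 12.14 in IKK_K171E and 12.22 and 12.11 in EV (0.31, adjusted p = 0.0987, limma). Atp5a1, its partner in the ring, gave 0.31 (adjusted p = 0.132), and the central stalk gave 0.02 for Atp5c1 (adjusted p = 0.913), 0.02 for Atp5d (adjusted p = 0.907) and 0.43 for Atp5e (adjusted p = 0.0527). Of the peripheral stalk, which keeps the head from turning, Atp5o (0.55, adjusted p = 0.0369), Atp5j (0.55, adjusted p = 0.0184) and Atp5pb (0.50, adjusted p = 0.0189) were called. Atp5h, the fourth, gave 0.28 (adjusted p = 0.0705). The other feature of Atp5pb read 0.28 and was not called (adjusted p = 0.0884, limma).

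The c ring, which turns as protons pass, is made of the same mature protein from 3 genes, Atp5g1, Atp5g2 and Atp5g3, and these differed. Atp5g1 had 10.53 and 10.55 in MYD88_L265P, 10.36 and 9.89 in IKK_K171E and 9.58 and 9.49 in EV. It was 2.01-fold higher in MYD88_L265P than in EV (log2 fold change 1.01 ± 0.15 SE, adjusted p = 0.00962, limma), and no groups overlapped. Atp5g3 had 12.49 and 12.47 in MYD88_L265P, 12.48 and 12.22 in IKK_K171E and 12.19 and 11.96 in EV (0.40 ± 0.123 SE, adjusted p = 0.0637). Atp5g2 had 11.13 and 11.25 in MYD88_L265P, 11.47 and 11.09 in IKK_K171E and 11.36 and 11.47 in EV, with both MYD88_L265P arrays below both EV arrays. That order was found in 9643 of all 19818 genes. The change of Atp5g2 was -0.23 ± 0.136 (SE, adjusted p = 0.239, limma), the lowest of complex V, and its 3 features read between -0.25 and -0.23. The difference between these 3 genes was not tested.

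Among the small membrane subunits of complex V, Atp5md had the largest change and the widest spread. It had 10.04 and 10.08 in MYD88_L265P, 9.58 and 8.92 in IKK_K171E and 9.31 and 8.54 in EV. The IKK_K171E and EV arrays overlapped and the MYD88_L265P arrays lay above them (log2 fold change 1.13 ± 0.28 SE over EV, adjusted p = 0.0369, limma). Atp5k (0.90, adjusted p = 0.0347) and Atp5l (0.61, adjusted p = 0.0177), which take part in holding ATP synthase dimers together, were called, and all 6 features of Atp5l were called, between 0.59 and 0.70. Atp5mpl (0.51, adjusted p = 0.0557) and Atp5j2 (0.09, adjusted p = 0.48) were not called. Over all 91 genes, 17 had over 1 feature, and the features differed in call in MYD88_L265P over EV for 4 of them (Atp5pb, Cox5b, Cycs and Uqcrb) and in sign for Uqcr11. Which sequence each feature of a gene reads was not resolved here, so several features of 1 gene are not separate support.

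A list of core subunits and carriers, most of which carry electrons or form the catalytic sites, was set beside the rest, since accessory subunits outnumber them. Of 13 measured, 6 were higher in MYD88_L265P than in EV (Cycs, Cyc1, Sdhb, Ndufs1, Ndufs8 and Uqcrfs1), with a median log2 fold change of 0.43. Of the other 78 genes 34 were higher, with a median of 0.43 as well. In IKK_K171E the medians over EV were 0.12 for these 13 and 0.18 for the other 78. No difference between the classes was tested.

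Other mitochondrial genes outside the rule were set beside these in lists. Of 37 assembly factors of the complexes, limma called 5 higher in MYD88_L265P than in EV (13.5%, near the 9.02% of all genes) and 0 lower, 1 lower at an unadjusted p below 0.05, and the median log2 fold change was 0.20. They were Uqcc2 (0.69), Lrpprc (0.68), Cox17 (0.60), a copper chaperone of complex IV, Atpaf1 and Uqcc1. In the citrate cycle 5 of 12 genes (41.7%) were higher and 0 lower, also at an unadjusted p, with a median of 0.31. Idh3a, a subunit of the isocitrate dehydrogenase of the cycle, led with 9.95 and 9.91 in MYD88_L265P, 9.88 and 9.34 in IKK_K171E and 8.97 and 8.93 in EV (0.98, adjusted p = 0.0132, limma). Suclg2 (0.88), Dld (0.79), Mdh2 and Sucla2 were the others. In ubiquinone synthesis 1 of 10 genes was higher, Coq7 (0.57), a share close to that of all genes, and 0 were lower, 1 of them lower at an unadjusted p below 0.05.

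Of 23 genes of mitochondrial protein import 10 (43.5%) were higher in MYD88_L265P than in EV, beside 9.02% of all genes, and 0 lower, also at an unadjusted p, with a median of 0.45. Timm8a1, a small chaperone of the space between the membranes, had 10.18 and 10.08 in MYD88_L265P, 9.93 and 9.35 in IKK_K171E and 8.29 and 8.54 in EV. Timm8a1 rose by 1.71 on the log2 scale in MYD88_L265P (adjusted p = 0.00483, limma) and by 1.23 in IKK_K171E (adjusted p = 0.0383), and its groups did not overlap. The matrix chaperones Hspa9 (0.99) and Hspd1 (0.97) were called in MYD88_L265P. Among 19 genes of mitochondrial DNA expression and its regulators 4 (21.1%) were higher and 1 lower, with a median of 0.13. Tfb1m, a methyltransferase of mitochondrial ribosomal RNA (1.18, adjusted p = 0.0369), Pprc1 (0.73), Tfam (0.59), the main packaging factor of mitochondrial DNA, and Gabpa (0.33) were higher. Ppargc1a, a coactivator known to drive mitochondrial genes in muscle and brown fat, had 7.95 and 7.50 in MYD88_L265P, 8.21 and 8.40 in IKK_K171E and 8.57 and 8.61 in EV. Its log2 fold change was -0.86 in MYD88_L265P (adjusted p = 0.0150, limma), opposite in sign to its relative Pprc1. The signals of Ppargc1a lay around the array medians of 8.03 to 8.13, and weak signal and background cannot be told apart. Timm8a1 was the only gene of these 5 lists called in IKK_K171E over EV, and 0 were called by limma between MYD88_L265P and IKK_K171E. In that last comparison, at an unadjusted p below 0.05, between 1 and 10 genes of a list were higher in MYD88_L265P and at most 1 lower. Over all 19818 genes 1616 were higher and 2279 lower at that level.

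**Figure D5:**
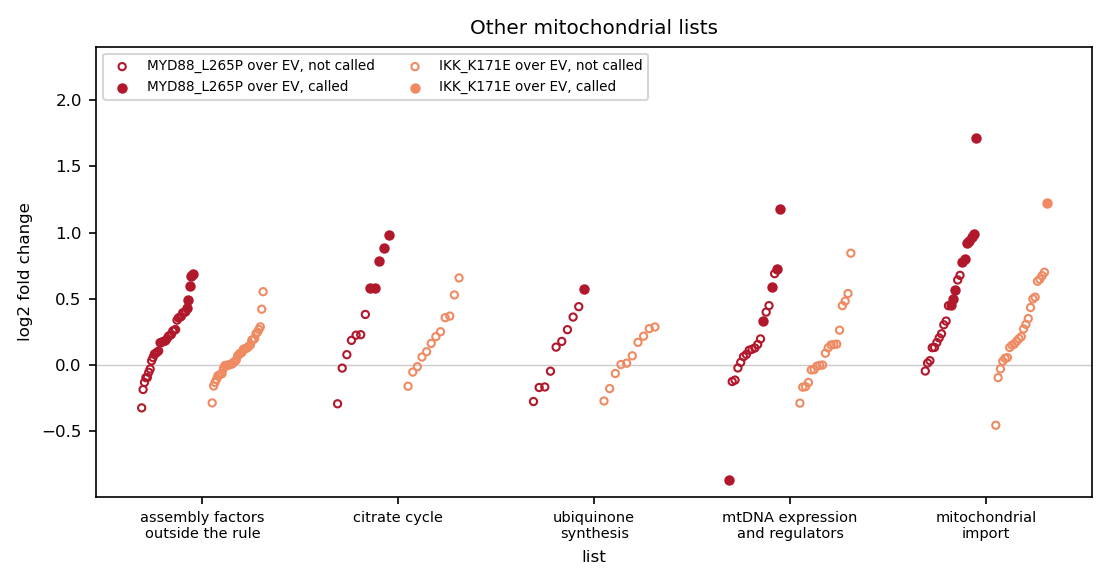
Log2 fold changes over EV of the genes in 5 further mitochondrial lists, in MYD88_L265P (red, left of each pair) and in IKK_K171E (orange). Filled points are called genes. The highest point in both is Timm8a1, and the filled point below 0 is Ppargc1a at -0.86.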

How the data were processed

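RNA of sorted mouse splenic B cells was measured on 2 Affymetrix mouse ST 1.0 arrays for each of the 3 groups, which follow the labels. The deposited values are log2 expression processed by the authors, per the submitters' processing notes with oligo and limma. Background correction, normalization and genome build are not given in the sources used here. Values ran between 2.55 and 14.5, and no detection p-values came with them, so weak signal and background cannot be told apart.

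Features with exactly 1 symbol (21542 of 24743) were fitted without further scaling with limma 3.58.1 in R 4.3.3, as group means over all 6 arrays with empirical Bayes moderation. Two-sided p-values were adjusted by Benjamini-Hochberg, with calls below 0.05. P-values rest on 3 residual degrees of freedom and 4.17 prior ones from the moderation. The fit was tested on simulated data. Promoter windows are from RefSeq. The genes, lists and tests were chosen with earlier results of these data known. Named genes are up to 24 called members, the highest and lowest of each complex, the catalytic list, and up to 3 called genes per further list and direction. Others were named after their values were seen. Alternatives covered scaling, the variance model, features, a replicate block and each array left out. Labels do not tie arrays of equal replicate number, and the sample titles number some arrays of the same block differently. Deviations of arrays of equal replicate number were only weakly correlated over all features (0.144, 0.105 and 0.211 for the 3 pairs of groups). Over the respiratory genes these correlations were 0.063, 0.045 and 0.218, in the order MYD88_L265P with IKK_K171E, MYD88_L265P with EV and IKK_K171E with EV. Whether the arrays of a block belong together is therefore not known. Values with the block stand as an alternative beside results whose call it changes.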

Additional observations from a re-analysis of the deposited data

Results flagged for a closer look

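Ndufa1, a membrane arm subunit of complex I, differed between the effects of the mutants: its log2 fold change over EV was 0.74 larger in MYD88_L265P than in IKK_K171E (adjusted p = 0.0238, limma), with both MYD88_L265P arrays above both IKK_K171E arrays. The adjusted p was 0.121, 0.215, 0.0518 and 0.135 without MYD88_L265P replicate 1, MYD88_L265P replicate 2, IKK_K171E replicate 1 and IKK_K171E replicate 2. Of the 91 genes, 1 (1.1%) was called higher in MYD88_L265P over IKK_K171E, a share near the 0.903% of all genes. Groups of 2 arrays are too small for a check of single far samples.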

How the results depend on the processing

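No called gene changed direction under any alternative run. In MYD88_L265P over EV the number of the 91 genes called, 40, stayed between 36 and 49 under the replicate block, other scalings, variance models and feature choices, was 26 with a minimum of 1.5-fold, and ran between 3 and 43 as single arrays were left out. Lower calls appeared there: Cox7a2l under the replicate block, quantile normalization, trend and robust variance, array weights and without EV replicate 1, and Cox7b2 with only the 4 arrays compared or without either IKK_K171E array. With all arrays shifted to a common median, 11.7% of all genes were higher and 3.51% lower, against 9.02% and 7.44%. In IKK_K171E over EV the number called, 2, was 6 with the replicate block, 4 with quantile normalization, with trend and robust variance or without the dimmest 25% of features, 1 with a common median, and 0 with array weights, with all features tested or with only the 4 arrays compared. It ran between 0 and 7 as single arrays were left out, with 7 without IKK_K171E replicate 2 and 4 without EV replicate 1. In MYD88_L265P over IKK_K171E the number, 1, was 2 with the replicate block and 0 or 1 without single arrays. The replicate block changed no call of the 91 genes other than those named with it in the results. The cause of these differences was not tested.

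In MYD88_L265P over EV, quantile normalization gave a median of 0.30 for the 91 genes and 0.31 for complex I and 0.060 for complex II, a common median gave 0.56 for complex III and 0.15 for complex IV, and complex IV was 0.11 without the dimmest 25% of features and 0.52 without tissue-restricted isoforms. In IKK_K171E over EV, quantile normalization gave 0.016 for complexes II and IV, and complex IV was 0.079 without those features and 0.25 without those isoforms. In MYD88_L265P over IKK_K171E, quantile normalization gave 0.133 for the 91 genes, 0.149 for complex I, 0.043 for complex II, 0.17 for complex III and 0.104 for complex V, a common median gave 0.22 for complex II and 0.20 for complex IV, and complex IV was 0.26 without those isoforms. As single arrays were left out, medians of MYD88_L265P over EV ran between 0.31 and 0.46 for the 91 genes, 0.112 and 0.30 for complex II, 0.30 and 0.49 for complex III, and -0.025 and 0.14 for complex IV. In IKK_K171E over EV they ran between 0.059 and 0.29 for the 91 genes, 0.053 and 0.31 for complex I, -0.115 and 0.24 for complex II, 0.067 and 0.26 for complex III, 0.028 and 0.087 for complex IV, and 0.055 and 0.31 for complex V. In MYD88_L265P over IKK_K171E they ran between 0.082 and 0.33 for the 91 genes, 0.12 and 0.34 for complex I, -0.024 and 0.33 for complex II, 0.084 and 0.34 for complex III, 0.064 and 0.20 for complex IV, and 0.054 and 0.34 for complex V. Signal over background could not be judged without detection p-values.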
